A study of Mus musculus with 8 samples.

Results

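The Il7r-positive lymphoid progenitors were 224 of 8708 nuclei (2.57%, 95% Clopper-Pearson interval 2.25 to 2.93%) in a table of unique molecular identifier (UMI) counts from mouse bone marrow. They were chosen by measured values: at least 5 UMIs of Dntt, Cmah and Arpp21 together, at least 1 UMI each of Dntt and Il7r, at most 1 UMI of Pax5, Cd79a, Cd79b, Vpreb1 and Igll1 together, and 0 UMIs of the granule protease genes Elane, Prtn3 and Ctsg. The levels of these 12 genes are therefore a description of the choice and not a result.

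The nuclei came from lineage-negative, Sca1-positive, ckit-positive (LSK) marrow cells, a sorted fraction that holds stem cells and early progenitors, and were profiled with the 10x multiome assay, which reads RNA and open chromatin from the same nucleus. The labels name mice with the T58A point mutation of MYC and their WT littermates, with 2 RNA and 2 chromatin samples of each genotype and 2 pooled mice behind each sample; the chromatin samples were not used here. The barcodes carried a suffix from 1 to 4, here called barcode sets, and neither the labels nor the header links a suffix to T58A or WT, so the genotypes were not compared. The table's name gives T58A only, so it was not settled here whether WT nuclei are in it. The whole table was treated as 1 sample: no p-value was made from nuclei, intervals cover counting error only, and the sets are given side by side without being called replicates.

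The interleukin-7 receptor alpha chain, encoded by Il7r, pairs with the common cytokine chain Il2rg and signals through JAK kinases and STAT5 to keep early lymphoid cells alive and dividing. In mouse marrow its appearance on progenitors that already carry the cytokine receptor FLT3 marks the step from multipotent to lymphoid cells. Dntt encodes terminal transferase, which adds bases at the joints of antigen receptor genes, Rag1 and Rag2 encode the recombinase that cuts those genes, and EBF1 is the transcription factor that starts the B cell programme.

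The upstream sequence of 4 genes on which the results turn is given from RefSeq for GRCm38.p6: Ebf1, Il7r, Dntt and Blnk, the last being the adaptor of B cell receptor signalling. Each run covers bases before the annotated 5′ end of the gene and is written 5′ to 3′ on the gene's own strand. Ebf1 is at chr11:44617850-44618099 (+, the outermost of 2 promoters listed), Il7r at chr15:9529942-9530126 (−), Dntt at chr19:41029025-41029274 (+) and Blnk at chr19:40994222-40994471 (−). Capitals mark matches to any of 5 motifs searched on both strands: the EBF core CCCNNGGG, the ETS motif AGGAAGT, the E-boxes CAGCTG and CAGGTG, and the STAT motif TTCNNNGAA.
Ebf1: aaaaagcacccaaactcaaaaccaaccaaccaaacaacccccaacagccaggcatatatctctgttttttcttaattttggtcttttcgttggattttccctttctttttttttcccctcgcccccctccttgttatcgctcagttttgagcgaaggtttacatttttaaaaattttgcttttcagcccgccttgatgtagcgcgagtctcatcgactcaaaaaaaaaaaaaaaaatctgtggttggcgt
Il7r: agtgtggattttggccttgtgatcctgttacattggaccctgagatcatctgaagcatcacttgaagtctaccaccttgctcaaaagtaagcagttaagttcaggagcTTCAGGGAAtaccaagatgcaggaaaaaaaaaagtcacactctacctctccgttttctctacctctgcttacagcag
Dntt: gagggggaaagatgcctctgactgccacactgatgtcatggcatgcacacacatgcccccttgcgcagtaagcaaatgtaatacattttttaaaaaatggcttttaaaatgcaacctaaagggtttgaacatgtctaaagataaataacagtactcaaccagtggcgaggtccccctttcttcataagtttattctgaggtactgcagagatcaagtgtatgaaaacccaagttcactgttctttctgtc
Blnk: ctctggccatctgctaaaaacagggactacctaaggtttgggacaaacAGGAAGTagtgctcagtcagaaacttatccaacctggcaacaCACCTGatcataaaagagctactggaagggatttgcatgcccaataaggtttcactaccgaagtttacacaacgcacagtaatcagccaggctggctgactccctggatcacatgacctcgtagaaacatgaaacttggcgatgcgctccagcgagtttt
The Il7r window of 185 bases held 1 STAT match, which began 77 bases before the gene, a motif present in 5.38% of 32851 promoter windows of that length. The Blnk window of 250 bases held 1 ETS match that began 202 bases before the gene and 1 reverse-strand CAGGTG match that began 160 bases before it, motifs present in 7.69% and 17.2% of promoter windows of 250 bases. The EBF core was in 11.8% of those windows and CAGCTG in 13%, and neither was in the 4 shown. A match describes letters only.

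The members were deeper than most nuclei. Their median was 5098.5 non-mitochondrial UMIs (2891 to 6769 over the sets), against 3353 over all nuclei. Mitochondrially encoded genes took 21.1% and 20.9% of the members' UMIs in sets 1 and 3, against 8.97% and 7.88% in sets 2 and 4. Levels are given as counts per 1000000 non-mitochondrial UMIs (CPM), and shares of nuclei with a UMI were taken after every nucleus was thinned to 2000 such UMIs, which left out 16 members. Of the barcode sequences, 36 occurred in more than 1 set, and 1 member had such a barcode.

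The members made up 2.33% of set 1 (70 of 2999 nuclei), 3.61% of set 2 (26 of 721), 1.56% of set 3 (43 of 2756) and 3.81% of set 4 (85 of 2232). Sets 2 and 4, the deeper ones, had the larger shares. With the rule applied to nuclei thinned to 2000 UMIs, 123 of 6565 nuclei met it (1.87%, 1.56 to 2.23%), and the shares in sets 1 to 4 were 1.84%, 3.23%, 1.23% and 2.04%. Of those 123 nuclei, 97 were also members by their full counts. In sets 1 to 4 these were 31 of 33, 12 of 23, 22 of 24 and 32 of 43. The share of set 2 at this depth thus includes many nuclei that the full counts left out. At equal depth set 4 lay near set 1, and set 3 was again the lowest.

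**Figure D1:**
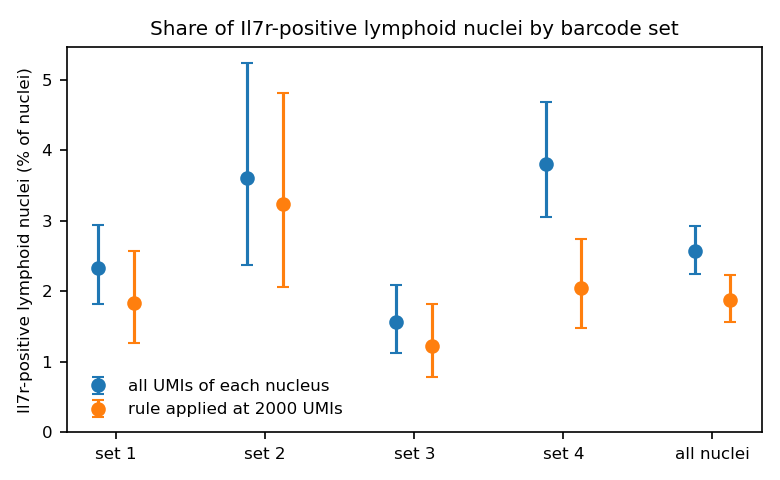
Share of nuclei (percent, with 95% Clopper-Pearson bars for counting error) that met the rule in each barcode set and in all nuclei, with all UMIs of each nucleus and with the rule applied at 2000 UMIs. The share of set 4 is 3.81% with all UMIs and 2.04% at 2000 UMIs.

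The edge on Il7r was the most crowded of the rule. With every other condition met, 263 nuclei had 0 Il7r UMIs and were outside, 76 had 1, 51 had 2 and 36 had 3. At 2000 UMIs, 62 of 208 members had no Il7r UMI left, so at this depth a count of 0 does not tell a nucleus without Il7r transcripts from one in which they were missed. The edge on the 3-gene sum had 8 nuclei outside at 4 UMIs and 13 inside at 5. The edge on granule proteases had 60 nuclei outside at 1 UMI, and that on B lineage genes had 17 inside at 1 UMI and 4 outside at 2.

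Members carried a median of 6 Dntt, 5 Arpp21, 3 Cmah and 2 Il7r UMIs. The most in a single member was 43 for Dntt, 78 for Arpp21, 47 for Cmah and 36 for Il7r. Il7r stood at 726.4, 386.9, 446.7 and 582.7 CPM in sets 1 to 4.

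Of the markers given for these cells, Ebf1 and Rag2 were not used by the rule. Rag2 had 25 UMIs in 22 members and no member had more than 2, so it stood at 20.2 CPM (13.1 to 29.8), against 3.73 CPM in Il7r-negative lymphoid nuclei. Early B lineage nuclei, defined by Ebf1 and at least 3 UMIs of the 5 B lineage genes, had 25.0 CPM of Rag2. Rag1 stood at 8.09 CPM in members, 4.48 CPM in Il7r-negative lymphoid nuclei and 29.1 CPM in early B lineage nuclei. Rag2 thus marked few members: at 2000 UMIs it was seen in 3.37% of members, in 0.897% of Il7r-negative lymphoid nuclei and in 3.66% of early B lineage nuclei, while erythroid nuclei had 1 UMI in all. Ly6d, a surface protein of B-biased lymphoid progenitors, stood at 12.9 CPM in members, 2.24 CPM in Il7r-negative lymphoid nuclei and 56.1 CPM in early B lineage nuclei, and its level of 52.5 CPM in set 1 of the members was far above the 1.63 to 9.21 CPM of the other sets.

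Ebf1 was found in only some members. It had 538 UMIs in 100 of the 224, and the 35 members with at least 5 UMIs held 432 of them. At 2000 UMIs, 67 of 208 members had an Ebf1 UMI (32.2%, 25.9 to 39.0%), against 19 of 223 Il7r-negative lymphoid nuclei (8.52%, 5.21 to 12.99%). In sets 1 to 4 the shares were 30.9%, 26.9%, 33.3% and 34.1% in members, against 8.20%, 10.5%, 10.6% and 7.29% in Il7r-negative lymphoid nuclei. The members were higher in every set, and the 2 groups of set values did not overlap. Erythroid nuclei, in which the gene should be silent, had an Ebf1 UMI in 2.01% at the same depth of 2000 UMIs. By level, Ebf1 stood at 435 CPM in members and 10444.5 CPM in early B lineage nuclei, whose choice used it.

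The members were also split by Il7r UMIs, which the rule used, so the shares are a description. At 2000 UMIs Ebf1 was found in 46.0% of the 63 members with at least 2 Il7r UMIs (33.4 to 59.1%), in 27.7% of the 83 with 1 (18.5 to 38.6%) and in 24.2% of the 62 with none (14.2 to 36.7%). Mecom, a transcription factor of stem cells, was found in 22.2%, 28.9% and 46.8% of the same members. Erythroid nuclei had a Mecom UMI in 13.9%. For both genes the intervals overlapped between all of these classes, the ends included. The classes had differed in depth before thinning, with medians of 4235, 5025 and 6603.5 UMIs, and the part of depth was not tested.

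**Figure D2:**
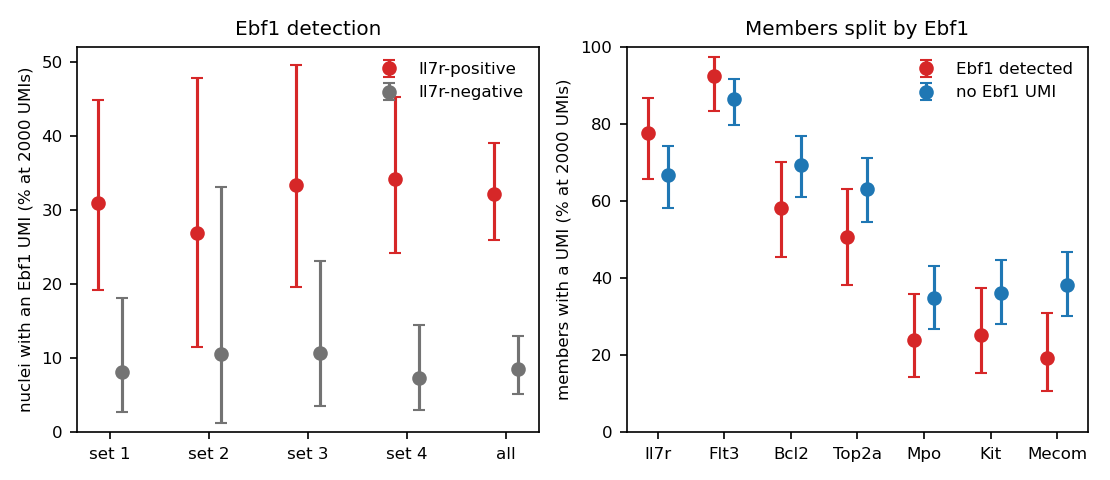
Left, nuclei with an Ebf1 UMI (percent, at 2000 UMIs) in Il7r-positive and Il7r-negative lymphoid nuclei by barcode set; right, members with a UMI of 7 genes, split by detection of Ebf1. Bars are 95% Clopper-Pearson intervals for counting error; Ebf1 was found in 32.2% of Il7r-positive and 8.52% of Il7r-negative nuclei, and Mecom in 19.4% of members with Ebf1 and 38.3% of those without.

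The comparison nearest to the rule set the 224 members against the 263 Il7r-negative lymphoid nuclei, which met every condition but the one on Il7r. A gene counted as called when CPM + 10 differed by 1.5-fold or more and each of the 4 sets pointed the same way, and it was measured when both groups together held 50 counts or more. Since the groups were chosen by values of the same nuclei, the calls are a description with no test. Of 6885 genes measured, 63 were higher in members (0.915%) and 80 were lower (1.16%). The members were higher in Ebf1 and Blnk, 2 of 13 measured early B lineage genes. They were lower in Kit, from a list of receptors with 1 higher and 3 lower genes of 17 measured. They were also lower in Lmo2, the only called gene of 16 measured stem cell genes. In the lists of IL-7 signalling, cell cycle and MYC target genes, 0 or 1 gene passed. With 0.915% and 1.16% of all genes called, lists of these lengths would hold few calls. Such counts, here and below, do not show a list to be unchanged. Median log2 ratios were −0.16 for IL-7 signalling, 0.17 for S phase, 0.12 for G2/M, 0.08 for G1 and −0.009 for MYC target genes. At 2000 UMIs per nucleus only 3622 genes were measured, of which 62 were higher and 65 lower. Of the 63 higher genes, 25 were still measured and 16 were called, and of the 80 lower genes, 25 were measured and 15 were called. The part of depth in the calls was not tested. The median gene length was 46.1 kb for the higher genes, 28.4 kb for the lower genes and 35.7 kb for all measured genes, and its part in the calls was not tested.

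Ebf1 led the higher genes. It stood at 463.9, 330.8, 575.6 and 404.8 CPM in sets 1 to 4 of the members, against 34.8, 242.7, 164.7 and 72.3 CPM in Il7r-negative nuclei. The pooled ratio was 4.38 (3.62 to 5.34), and the sets did not overlap. Blnk stood at 284.4, 84.1, 207.2 and 192.6 CPM in members, against 87.1, 21.4, 128.5 and 72.3 CPM in Il7r-negative nuclei, a ratio of 2.44 (1.94 to 3.09). Blnk was higher in members in each set, though set 2 of the members lay below sets 1 and 3 of the Il7r-negative nuclei, and with the 3-gene sum at 8 UMIs the log2 ratio was 1.07 but the sets no longer all pointed the same way.

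Ets1, a transcription factor of lymphoid cells, stood at 109.2 CPM in members and 46.3 CPM in Il7r-negative nuclei (ratio 2.36, 1.73 to 3.24), a log2 ratio of 1.08. The log2 ratio was 0.93 without likely doublets and 1.00 without 4 members that carried the T cell gene Bcl11b, past 1.5-fold in both, but not all sets pointed the same way and Ets1 was then not called. Cd247, the CD3 zeta chain, stood at 78.4 CPM in members and 32.1 CPM in Il7r-negative nuclei (ratio 2.45, 1.69 to 3.59), a log2 ratio of 1.07. It was not called without set 4, where the log2 ratio was 0.57, or with the sum at 8 UMIs, where it was 0.75. Grap2, an adaptor of T cell receptor signalling, stood at 82.5 CPM in members and 29.1 CPM in Il7r-negative nuclei (ratio 2.83, 1.94 to 4.21). Grap2 remained called under each of 14 alternatives.

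The other genes with the largest ratios belong to none of the gene lists except Col19a1. Rpgrip1, a ciliary protein gene known from the retina, stood at 89.8 CPM in members and 22.4 CPM in Il7r-negative nuclei (ratio 4.01, 2.66 to 6.22). Gfra1, a receptor for the growth factor GDNF, stood at 117.3 CPM in members and 39.5 CPM in Il7r-negative nuclei (2.97, 2.15 to 4.14). Col19a1, a collagen gene, stood at 141.5 CPM in members and 57.5 CPM in Il7r-negative nuclei (2.46, 1.87 to 3.26), and with at least 2 Il7r UMIs its log2 ratio was 0.99 without the same direction in all sets. Dgke, a diacylglycerol kinase, and Gm2629, a predicted gene, completed the 10 genes with the largest ratios, at 2.32 (1.64 to 3.33) and 2.32 (1.82 to 2.96).

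Kit, the receptor for stem cell factor and one of the proteins of the sort, was lower in members. It stood at 126.9, 207.5, 253.3 and 241.6 CPM in members, against 404, 478.3, 377.6 and 415.6 CPM in Il7r-negative nuclei, and the sets did not overlap. The Il7r-negative nuclei had 1.90 times the members' level (1.64 to 2.20), and Kit remained called under each of 14 alternatives. Stem cell nuclei, chosen by Hlf and Mecom, had 703.9 CPM of Kit and early B lineage nuclei 218.4 CPM.

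Csf3r, the receptor for granulocyte colony-stimulating factor, stood at 63.1 CPM in members and 136.5 CPM in Il7r-negative nuclei, 2.17 times the members' level (1.65 to 2.86). It was the only lower gene of 7 measured myeloid genes, of which Ly86 was higher, and at 2000 UMIs its log2 ratio was −0.88 without the same direction in all sets. Car2, a carbonic anhydrase of erythroid and other cells, stood at 77.6 CPM in members and 192.5 CPM in Il7r-negative nuclei (2.48 times the members' level, 1.95 to 3.17). The summed level of 8 erythroid markers was 72.8 CPM in members and 177.6 CPM in Il7r-negative nuclei, and its part in the Car2 difference was not tested. Il15, a cytokine gene, stood at 76.8 CPM in members and 155.2 CPM in Il7r-negative nuclei (2.02 times, 1.58 to 2.60). Eda, Gm44148, Rgs2, Scml4, Ccl3 and Glipr1 completed the 10 genes with the lowest ratios, with Il7r-negative nuclei at 1.88 to 2.77 times the members' level. With the 3-gene sum at 8 UMIs, Car2, Gm44148, Rgs2 and Scml4 were still past 1.5-fold, at log2 ratios of −0.97, −0.93, −0.77 and −0.94, but were not called for want of the same direction in all sets. The same held for Rgs2 at 2000 UMIs (−1.05) and for Eda without likely doublets (−1.14).

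**Figure D3:**
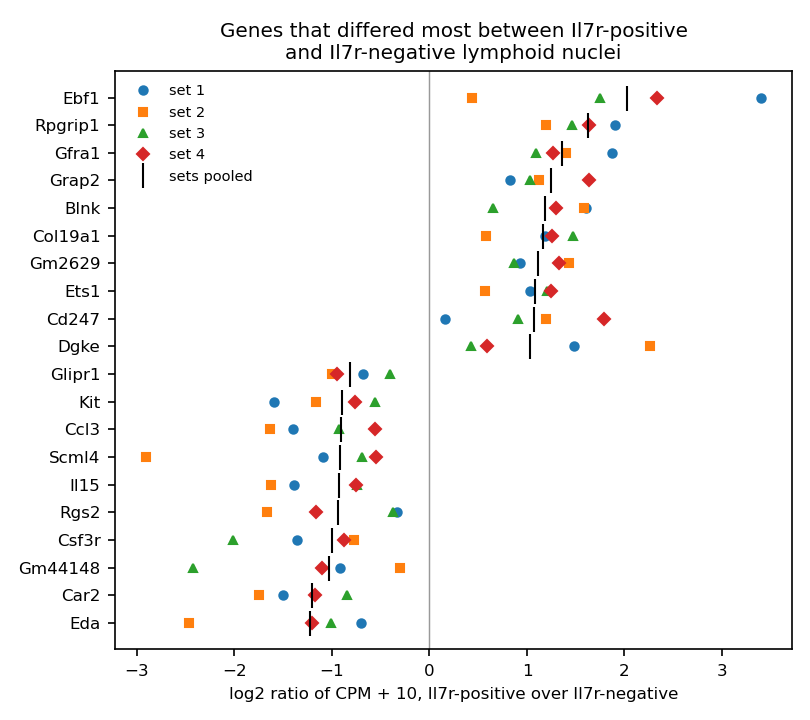
Log2 ratio of CPM + 10 in Il7r-positive over Il7r-negative lymphoid nuclei (x axis) for the 10 genes with the highest and the 10 with the lowest ratios; coloured points are the 4 barcode sets and black bars the pooled sums. Ebf1 is farthest to the right at 2.03, and each set lies on the same side of 0 as the pooled value because the call rule asks for it.

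Among transcription factors of lymphoid priming, 1 of 22 measured genes was higher in members (Ets1) and 1 was lower (Ikzf2), with a median log2 ratio of 0.07 beside −0.01 over all genes. Satb1, Runx2, Irf8, Mef2c and Bcl11a were measured and passed in neither direction. Satb1 stood at 1524.3 CPM in members, 1451.9 CPM in Il7r-negative nuclei and 576.1 CPM in early B lineage nuclei. Ikzf2, the Helios factor, stood at 233.7 CPM in members and 382 CPM in Il7r-negative nuclei.

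Of 14 measured genes in the IL-7 receptor signalling list, 0 passed in either direction, with a median log2 ratio of −0.16. Stat5b, a transcription factor below the receptor, stood at 218.3 CPM in members and 254.4 CPM in Il7r-negative nuclei (ratio 0.858, 0.729 to 1.01), and Jak1, the kinase bound to the receptor, stood at 224.8 CPM in members and 245.5 CPM in Il7r-negative nuclei (ratio 0.916, 0.778 to 1.08). Bcl2, a survival gene that IL-7 signals support, stood at 748.8 CPM in members and 695.4 CPM in Il7r-negative nuclei (ratio 1.08, 0.982 to 1.18). The STAT5 target Socs2 stood at 13.8 CPM in members and 2.24 CPM in Il7r-negative nuclei, on 17 UMIs in 12 members, below the count needed to be measured. Cish, another such target, had 4 UMIs in members.

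Of 17 measured cytokine and growth factor receptors, 1 was higher in members and 3 were lower. Il6st, the shared signalling chain of the interleukin-6 family, was higher at 185.2 CPM in members, against 113.4 CPM in Il7r-negative nuclei. Il1r1, the interleukin-1 receptor, was lower at 93.8 CPM in members, against 155.2 CPM in Il7r-negative nuclei; Kit and Csf3r were the other lower genes. Flt3 stood at 1227.5 CPM in members and 1115.4 CPM in Il7r-negative nuclei (ratio 1.10, 1.02 to 1.18), and it had a UMI in 213 of the 224 members.

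Of 16 measured stem cell genes, 1 was lower in members and none was higher, with a median log2 ratio of −0.22. Lmo2, a bridging factor of early blood cells, stood at 247.4 CPM in members and 423 CPM in Il7r-negative nuclei. Mecom was just short of a call, at 427.8 CPM in members and 639.4 CPM in Il7r-negative nuclei (ratio 0.669, 0.599 to 0.746), with the lower value in members in each set. Hlf, a stem cell transcription factor, stood at 151.2 CPM in members and 217.1 CPM in Il7r-negative nuclei. Erythroid nuclei had 156.2 CPM of Mecom, so the members' level exceeded that of a cell type outside the stem and lymphoid lineages.

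Of 17 measured immediate early genes, 3 were lower in members (Egr1, Zfp36 and Dusp1), with a median log2 ratio of −0.37. These genes respond to growth factors and also to cell handling. Egr1, a zinc finger transcription factor, stood at 168.2 CPM in members and 285.8 CPM in Il7r-negative nuclei. Of 40 measured S phase genes 1 was higher in members, Mcm7 of the replicative helicase, and of 45 measured G2/M genes 0 passed. At least 5 of the 52 G2/M genes had a UMI in 71.2% of members (64.5 to 77.2%), 69.1% of Il7r-negative nuclei and 91.5% of early B lineage nuclei at 2000 UMIs. For 5 of the 44 S phase genes the shares were 68.8% of members (62.0 to 75.0%) and 58.3% of Il7r-negative nuclei (51.5 to 64.8%). These intervals overlapped. In sets 1 to 4 the S phase shares were 70.9%, 61.5%, 73.8% and 67.1% in members. Il7r-negative nuclei had 68.9%, 26.3%, 59.6% and 57.3%. Early B lineage nuclei had 89.0% over all sets. Of 10 measured genes among MYC, its partners and regulators of its turnover, and of 29 MYC target and ribosome biogenesis genes, 0 passed; Myc itself stood at 62.3 CPM in members and 61.9 CPM in Il7r-negative nuclei.

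Among the remaining lists, Fgf13 and Col19a1 were the higher genes of 14 measured from lymphoid-primed progenitors, and Ebf1 and Blnk those of 13 early B lineage genes. Fgf13, an intracellular growth factor homologue, stood at 997.1 CPM in members and 559.6 CPM in Il7r-negative nuclei. Of 8 V(D)J recombination genes, 11 homing receptors, 9 dendritic and MHC class II genes, 7 immunoglobulin and plasma cell genes, 15 G1 regulators and 5 BCL2 family genes, 0 passed. Of 6 T lineage genes Cd247 was higher, and of 4 innate lymphoid genes Zbtb16. Of 3 erythroid and megakaryocyte genes Car2 was lower, and of 15 interferon-stimulated genes Oasl2 was lower.

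Some members carried T lineage genes. Bcl11b, the transcription factor that commits T cells, had 57 UMIs in 5 members, and 4 members held 56 of them. These 4 nuclei lay in sets 1, 2 and 3 (2, 1 and 1) and had 6, 6, 25 and 19 Bcl11b UMIs, 4 or 5 UMIs of the T cell receptor beta constant gene Trbc1 each, no Ebf1 UMI and at most 1 UMI of Flt3. Trbc1 was found in 3 further members. Bcl11b had 0 UMIs in Il7r-negative lymphoid nuclei, which allows up to 2.24 CPM (3 counts). Of 8 T cell markers, Cd3e, Cd3d and Cd3g were at 0 in members, and the 8 summed to 219.1 CPM in members and 69.4 CPM in Il7r-negative nuclei. Of these 271 UMIs in members, Cd247 gave 97 in 53 members and Lck 73 in 60. The 4 Bcl11b nuclei held 2 of the Cd247 and 5 of the Lck UMIs, so most of the sum lay outside them. Zbtb16, a factor of innate lymphoid cells, was called higher in members on 49 UMIs in 11 nuclei, of which the 4 Bcl11b nuclei held 12. Without those 4 nuclei, 58 genes were higher and 78 lower than in Il7r-negative nuclei.

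Set against the 107 early B lineage nuclei, the members differed in many more genes. Of 5572 genes measured, 446 were higher in members (8.0%) and 286 were lower (5.13%). Genes of the B cell programme and of DNA replication were lower in members, and genes of lymphoid-primed and stem cells, with Bcl2, were higher. At 2000 UMIs only 2650 genes were measured, of which 227 were higher and 171 lower. The median gene length was 68.2 kb for the higher, 39.7 kb for the lower and 42.1 kb for all measured genes. Set 2 held 4 early B lineage nuclei, and 3 early B lineage nuclei held 840 of the 861 UMIs of the plasma cell genes Igha and Jchain in that group.

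Of 17 measured early B lineage genes, 11 were lower in members and 0 were higher, with a median log2 ratio of −1.69 beside 0.01 over all genes. The early B lineage nuclei were chosen by other genes of this programme. Lef1, a factor of early B and T cells, had 7 UMIs in members and stood at 0, 0, 9.21 and 8.16 CPM in sets 1 to 4, against 527.9, 2085.2, 766 and 746 CPM in early B lineage nuclei. Cecr2, a chromatin remodelling gene, stood at 12.9 CPM in members and 1310.2 CPM in early B lineage nuclei. The early B level was 137 times the members' level for Lef1 (65.7 to 342) and 101 times for Cecr2 (61.9 to 178). The levels in Il7r-negative nuclei were not the same for all of these genes. Blnk stood at 196.5 CPM in members, 80.6 CPM in Il7r-negative and 1393.4 CPM in early B lineage nuclei. Bach2, a repressor in B cells, stood at 516.7 CPM in members, 435.7 CPM in Il7r-negative and 1684.6 CPM in early B lineage nuclei. Foxo1, an activator of the recombinase genes, stood at 60.7 CPM in members (47.7 to 76.0), 51.5 CPM in Il7r-negative nuclei (40.1 to 65.2) and 447.1 CPM in early B lineage nuclei, and the first pair of intervals overlapped. Gfra2, Prkcb, Pde2a, Tmem108, Zhx2 and Nedd9 were the others of the 10 genes with the lowest ratios, with early B levels at 6.82 to 42.4 times the members' level.

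Of 13 measured genes from lymphoid-primed progenitors, 9 were higher in members than in early B lineage nuclei and 0 were lower, with a median log2 ratio of 1.5. The members were chosen by Dntt, Cmah and Arpp21, other genes of lymphoid progenitors, and the early B lineage nuclei were not. Flt3 stood at 1413.5, 1261.5, 1312.5 and 1118.1 CPM in sets 1 to 4 of the members, against 164.2, 602.4, 366.4 and 460.1 CPM in early B lineage nuclei, with no overlap (ratio 3.19, 2.74 to 3.74). Cd34, a sialomucin of progenitors, stood at 225.6 CPM in members and 45.8 CPM in early B lineage nuclei. Notch1, the receptor that directs T cell fate, stood at 338.8 CPM in members and 110.2 CPM in early B lineage nuclei. Il12a, a subunit of interleukin-12, stood at 287.1 CPM in members and 62.4 CPM in early B lineage nuclei. Against Il7r-negative nuclei, Cd34, Notch1 and Il12a passed in neither direction. Notch1 had 60.5 CPM in stem cell nuclei.

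Bcl2 stood at 910.2, 594.3, 732.2 and 739.4 CPM in sets 1 to 4 of the members, against 117.3, 231.7, 166.5 and 205.5 CPM in early B lineage nuclei. The groups did not overlap, and the ratio was 4.19 (3.35 to 5.29). It was the only one of 12 measured IL-7 signalling genes to pass. Bcl2l1, which encodes another inhibitor of cell death, was lower, at 16.98 CPM in members and 60.3 CPM in early B lineage nuclei. Stem cell nuclei had 322.8 CPM of Bcl2 and erythroid nuclei 83.7 CPM.

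Stem cell genes were also higher in members, and replication genes lower. Of 10 measured stem cell genes, 5 were higher than in early B lineage nuclei (Hlf, Mecom, Meis1, Hoxa9 and Nrip1) and 0 were lower. Mecom stood at 427.8 CPM in members, 91.5 CPM in early B lineage nuclei and 2469.4 CPM in stem cell nuclei, and Meis1, a homeobox factor, at 1031.0 CPM in members, 353.6 CPM in early B lineage nuclei and 2352.4 CPM in stem cell nuclei. Of 40 measured S phase genes 15 were lower in members and 1 was higher, and of 43 G2/M genes 6 were lower. Rrm2, a subunit of ribonucleotide reductase, stood at 25.1 CPM in members and 87.3 CPM in early B lineage nuclei. Mki67, a proliferation marker, stood at 521.6 CPM in members and 842.3 CPM in early B lineage nuclei.

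The 10 genes with the largest ratios over early B lineage nuclei included Slc8a1, Sema3d, Nav1, Ctr9, Ctnnd2, Clnk, Nos1ap, Ccser1 and Osbpl3. Slc8a1, a sodium-calcium exchanger, stood at 237.7 CPM in members and 25.0 CPM in early B lineage nuclei (ratio 9.53, 5.37 to 18.7). Clnk, an adaptor of immune receptor signalling, stood at 293.5 CPM in members and 47.8 CPM in early B lineage nuclei. Each of the 10 highest and of the 10 lowest genes remained called under every alternative in which it was measured.

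**Figure D4:**
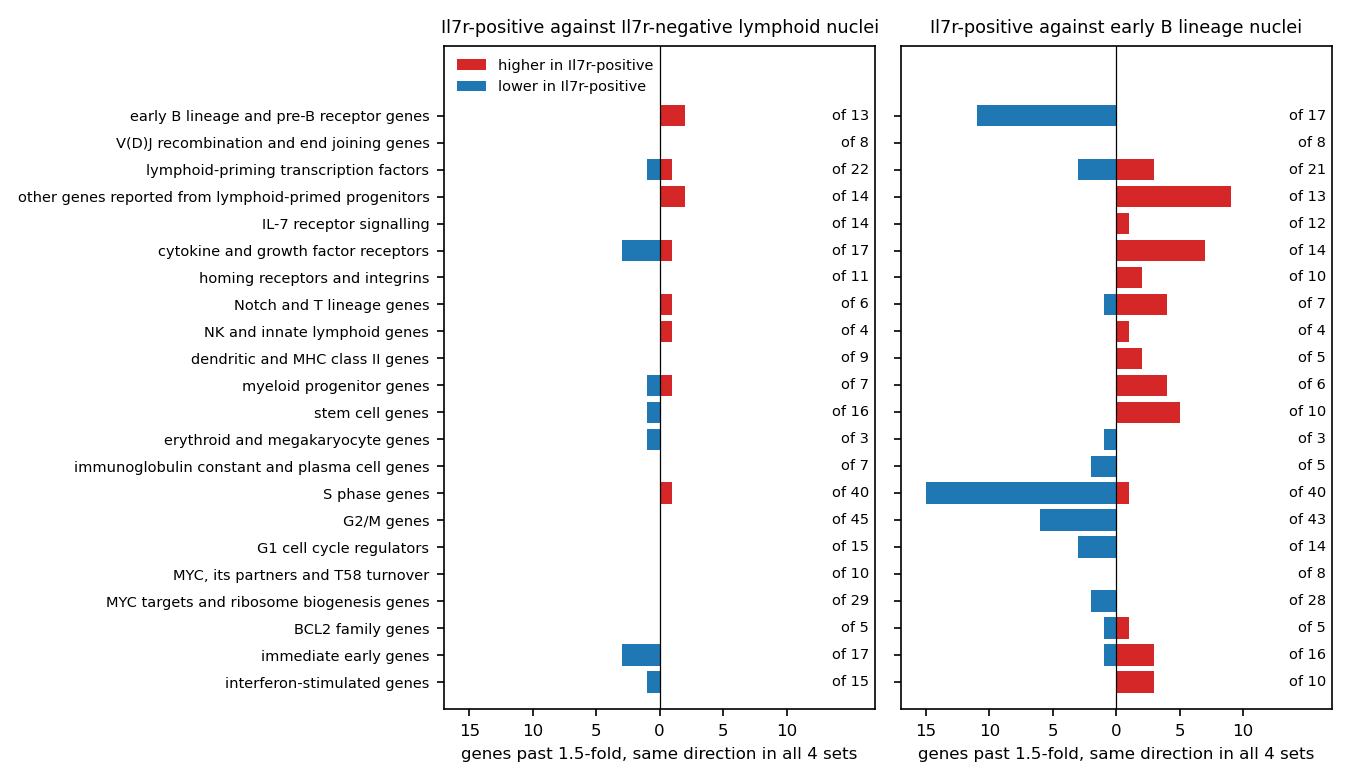
Number of genes higher (right, red) and lower (left, blue) in Il7r-positive nuclei for 22 gene lists, against Il7r-negative lymphoid nuclei (left panel) and early B lineage nuclei (right panel); the number at the right edge is how many of the list were measured. Against early B lineage nuclei 11 of 17 early B lineage genes are lower and 9 of 13 genes of lymphoid-primed progenitors are higher.

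**Figure D5:**
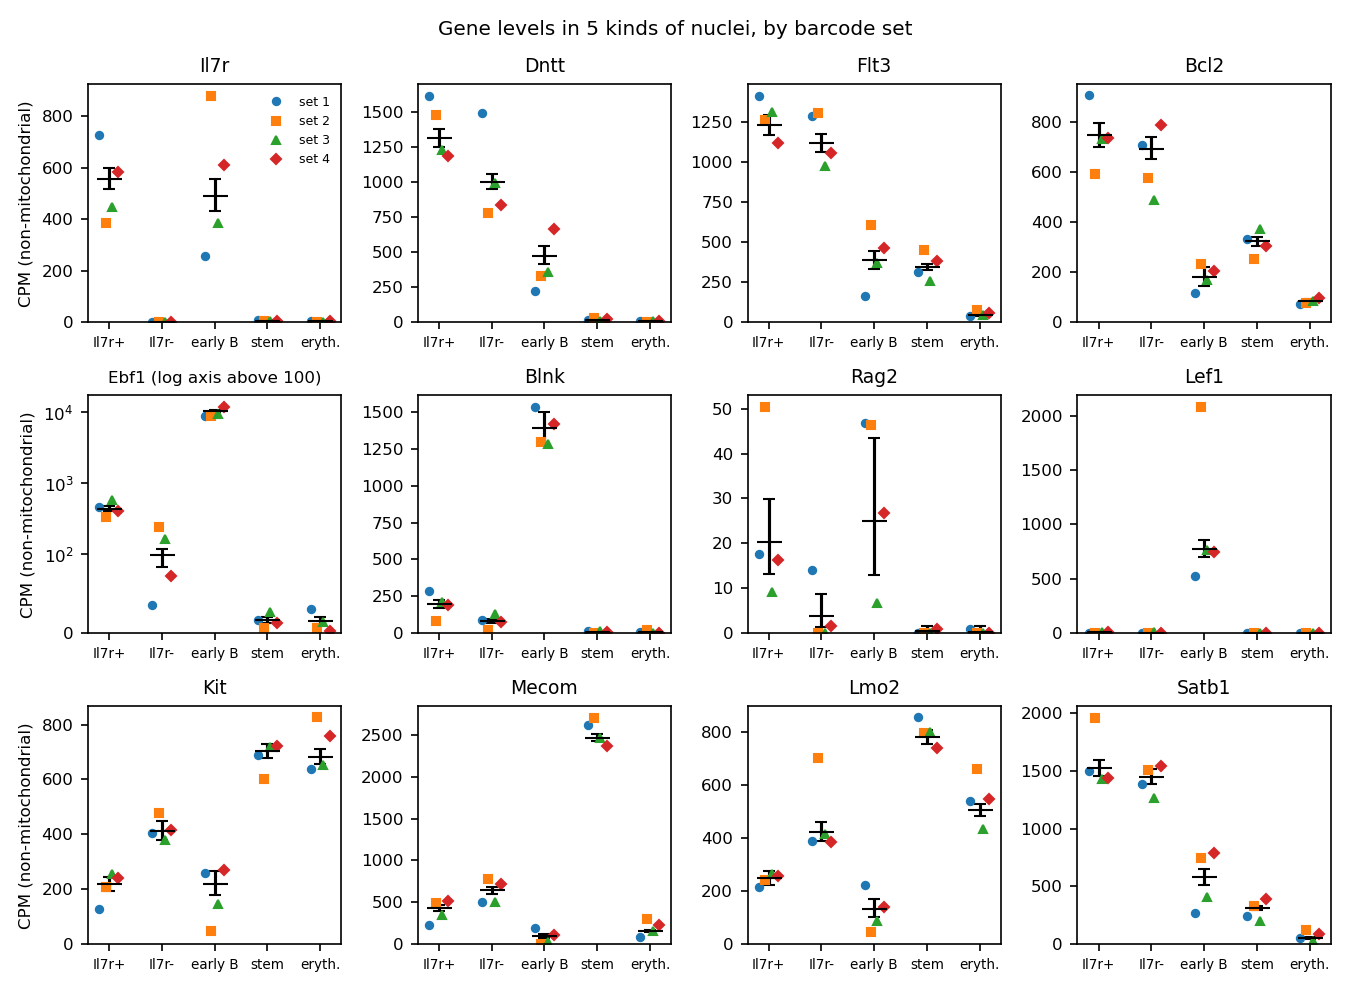
CPM of 12 genes in Il7r-positive (Il7r+), Il7r-negative lymphoid (Il7r-), early B lineage, stem cell and erythroid nuclei, with coloured points for barcode sets and black bars for pooled sums with 95% Poisson intervals; the Ebf1 axis is logarithmic above 100. Flt3 and Bcl2 are at 1227.5 and 748.8 CPM in Il7r-positive nuclei, against 384.8 and 178.9 CPM in early B lineage nuclei, while Il7r, Dntt, Ebf1 and Mecom helped to choose some of the groups.

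Against all 8484 other nuclei, 346 of 13100 measured genes were higher in members (2.64%) and 620 were lower (4.73%). This comparison describes the members, since the other nuclei are of many kinds. The 10 genes with the largest ratios included Fgf13, Col19a1, Gfra1, Drc7, Gm30948, Il12a, Lpar1, Colq and 5830418P13Rik. Fgf13 stood at 805.2, 1031.7, 893.4 and 1095.3 CPM in sets 1 to 4 of the members, against 88.1, 161.8, 86.1 and 168.8 CPM in other nuclei (ratio 7.78, 7.30 to 8.29). Il12a stood at 287.1 CPM in members and 52.1 CPM in other nuclei (ratio 5.51, 4.90 to 6.17). Against Il7r-negative lymphoid nuclei alone, Fgf13 was called higher but Il12a passed in neither direction, so Il12a was not particular to the members. Lpar1, a receptor for lysophosphatidic acid, stood at 76.8 CPM in members and 9.71 CPM in other nuclei. The lowest ratio was that of Slc25a21, a mitochondrial carrier gene used here to choose erythroid nuclei, at 34.0 CPM in members and 589.6 CPM in other nuclei.

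Immunoglobulin transcripts in the members differed between barcode sets. Igkc, the kappa constant gene, stood at 284.4, 61.7, 525 and 26.1 CPM in sets 1 to 4 of the members, against 993.2, 795.6, 2211.6 and 113.2 CPM in other nuclei. It was seen in 25.5% of members and in 35.3% of erythroid nuclei at 2000 UMIs. In sets 1 to 4 erythroid nuclei had 135.8, 23.3, 436.6 and 26.0 CPM. The members' values were larger in sets 1 to 3 and alike in set 4, while the share of nuclei with a UMI was smaller in members. Counting intervals were not made for single sets, so a higher level in members is not established. What the members' Igkc counts come from was not tested. Ighm, the mu constant gene, was seen in 39.4% of members, 38.6% of Il7r-negative nuclei and 15.9% of erythroid nuclei.

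Within the members, the 67 with an Ebf1 UMI at 2000 UMIs were set against the 141 without. Of 1943 measured genes, 29 were higher in members with Ebf1 (1.49%) and 67 were lower (3.45%). These calls varied with the draw of UMIs: with another draw 39 and 66 genes were called, and 4 of the 29 and 16 of the 67 were called again. Of the 10 genes with the highest and the 10 with the lowest ratios, only Mecom and Arhgef3 remained called under each of 9 alternatives.

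Mecom stood at 29.4, 71.4, 250 and 120.7 CPM in sets 1 to 4 of members with Ebf1, against 289.5, 447.4, 339.3 and 526.8 CPM in members without. The groups did not overlap, but members with Ebf1 held only 16 Mecom UMIs in all, so their set values rest on very few counts. Members without Ebf1 had 3.48 times the level of those with it (2.05 to 6.28). Pooled, members with Ebf1 stood at 119.4 CPM, below the erythroid level given above over all UMIs. Mecom was detected in 19.4% of members with Ebf1 (10.8 to 30.9%) and 38.3% of those without (30.2 to 46.8%). Arhgef3, an activator of the RhoA GTPase, stood at 358.2 CPM in members with Ebf1 and 202.1 CPM in those without (ratio 1.77, 1.18 to 2.65).

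Blnk had the largest ratio, at 440.3 CPM in members with Ebf1 and 152.5 CPM in those without (2.89, 1.92 to 4.38, a log2 ratio of 1.47). With another draw the log2 ratio was 0.82 and the sets did not all point the same way. Foxo1 had a UMI in 25.4% of members with Ebf1 (15.5 to 37.5%) and in 5.67% of those without (2.48 to 10.9%), against 7.43% of erythroid nuclei, and it had too few counts to be measured. Of 20 measured G2/M genes, 10 were lower in members with Ebf1, with a median log2 ratio of −0.61 beside −0.01 over all genes, and the median was −0.52 with another draw. At least 5 G2/M genes were seen in 62.7% of members with Ebf1 (50.01 to 74.2%) and 75.2% of those without (67.2 to 82.1%), intervals that overlapped. Flt3 was found in 92.5% of members with Ebf1, 86.5% of those without and 6.22% of erythroid nuclei, and Rag2 in 4 of 67 and 3 of 141.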

How the data were processed

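The authors deposited UMI counts per gene and nucleus, for 32285 genes, with no normalization (tested: every value is a whole number). Per the submitters' processing notes, Cell Ranger ARC, Seurat and Signac were used with mm10. Versions, and any filter applied before deposit, are not stated there. Per-sample columns left unused numbered 0.

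All 8708 nuclei were kept, and counts were summed over each group and divided by its non-mitochondrial UMIs. Intervals are exact: Poisson for CPM, Clopper-Pearson for shares, binomial for ratios. The 12 genes of the rule and mitochondrially encoded genes were left out of the calls, as was Ebf1 where it chose a group. Early B lineage nuclei had Ebf1 and no granule protease UMI. Stem cell nuclei had at least 10 UMIs of Hlf and Mecom together, with at least 1 of each. They also had at most 1 UMI of the 5 B lineage genes and no granule protease UMI. Erythroid nuclei had at least 5 UMIs of Car1, Slc25a21, Klf1 and Ermap together. Stem cell and erythroid nuclei had at most 1 UMI of Dntt, Cmah and Arpp21 together, so both were chosen against these genes of the rule. Named genes are the 10 highest and 10 lowest called ratios with at least 100 counts (10 highest against all other nuclei), without Xist, Tsix and Y-linked genes, then the given markers and the 2 largest ratios of a list; any other gene was chosen after its values were seen, the Ebf1 split and its genes included. Some genes that this rule names are not reported here. The members, 22 gene lists and 12 marker lists were chosen with earlier results of these data known. Likely doublets, the top 5% of a simulated-doublet score (14 members), were left out only as an alternative. The call rule was tried on simulated counts with counting error alone, without variation between nuclei or barcode sets. That trial does not measure how well the calls in these data hold. Promoters are RefSeq's for GRCm38.p6; all 4 genes matched. Python 3.11.15, NumPy 2.4.6, SciPy 1.17.1 and scikit-learn 1.9.0 were used.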

Additional observations from a re-analysis of the deposited data

How the results depend on the processing

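No paired analysis was possible because the columns carry no replicate number and nothing used here ties the barcode sets to the labelled samples. Counts below are higher and then lower genes. Against Il7r-negative nuclei (63 and 80), CPM + 1 gave 105 and 137, a minimum of 20 counts 106 and 129, of 100 counts 35 and 43, equal weight of sets 99 and 128, 2-fold 12 and 6, and no rule on direction 95 and 123; leaving out a set gave 59 to 100 higher genes, with 100 without set 4. Against early B lineage nuclei (446 and 286), thinning gave 227 and 171 of 2650 measured genes, a minimum of 20 counts 670 higher, of 100 counts 281 higher, 2-fold 187 and 95, and no rule on direction 453 lower. Against all other nuclei (346 and 620), CPM + 1 gave 534 and 1619, 2-fold 132 and 216, and thinning 965 lower; leaving out a set gave 678 to 938 lower genes, with 938 without set 4. For members split by Ebf1 (29 and 67), where each alternative was chosen after seeing the data, all UMIs of the same nuclei gave 77 and 154, a minimum of 20 counts 94 and 224, of 100 counts 11 and 22; leaving out a set gave 39 to 47 higher genes. The share of nuclei was 1.7% with at least 2 Il7r UMIs, 2.22% with the sum at 8 UMIs, 1.87% at 2000 UMIs, and 2.15 to 3.04% without a set. A looser minimum or rule adds genes by construction; other causes were not tested. The other settings, including all-UMI scaling, likely doublets left out, members with Bcl11b left out and early B nuclei with Igha and Jchain left out, kept counts within 1.5 times, but the genes changed: against Il7r-negative nuclei, 38 of the 63 higher and 51 of the 80 lower genes were called again without likely doublets, 26 and 31 with the sum at 8 UMIs, 42 and 49 with at least 2 Il7r UMIs, and 54 and 72 without members carrying Bcl11b. Of the named genes' log2 ratios under these alternatives, 948 stayed within the counting interval of the value reported, 52 lay outside it and none changed sign. The 948 include settings that cannot alter a ratio, namely other minimum counts, 2-fold and no rule on direction, so they overstate how stable the ratios were. Of the list medians, 769 moved by less than 0.2 and 91 by more, and of the counts of calls and the share of nuclei, 85 stayed within 1.5 times or the share's interval and 39 did not. The 769 likewise include the minimum of 20 counts, 2-fold and no rule on direction, which leave a median as it was. Of the 20 genes named in each comparison, 10 remained called under all alternatives in which they were measured against Il7r-negative nuclei, 20 against early B lineage nuclei and 2 in the Ebf1 split, as did the 10 named against all other nuclei. The minimum counts of 20 and 100, and CPM + 1 where used, could not remove the call of a named gene and are no check of it. Depth limits genes such as Rag1, Socs2 and Tcf7, which had under 50 counts in the members and their nearest reference.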
